A study of Mus musculus with 4 samples.

Results

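The growth hormone (GH) receptor, insulin-like growth factor 1 (IGF1), the IGF receptors and the IGF-binding proteins (IGFBPs) were examined in cultured mesenchymal cells of the mouse whisker follicle. The genes were taken by exact symbol from the deposited table of gene counts. They were Igf1, Ghr, Igf1r, Igf2r and Igfbp2 to Igfbp7, 10 of the 51826 genes in the table. Each of the 10 was found once, and each passed the minimum mean raw count of 10 over the 4 libraries that left 16734 genes for the comparisons.

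The study injected cultured hair follicle cells into mouse skin and asked how serial passage of the cells changed their return to the follicle. RNA sequencing compared dermal papilla cells (DPCs), the mesenchymal cells at the base of the hair bulb, with dermal sheath cells (DSCs), which surround the follicle. Both were grown from vibrissal follicles of EGFP-transgenic C57BL/6J mice 5 to 6 weeks old in DMEM with FBS, and the labels give their genotype as WT. The low-passage state was passage 3 and the high-passage state passage 9, and passage 3 DPCs, passage 9 DPCs, passage 3 DSCs and passage 9 DSCs were each sequenced as 1 library. The number of mice behind a culture is not given in the sources used here. With 1 library in each group, no difference below has a replicate check, and passage cannot be told apart from the day on which a culture or library was made.

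GH binds its receptor, which signals through the kinase JAK2 and the transcription factors STAT5A and STAT5B and induces Igf1 in many tissues. IGF1 and IGF2 act through the IGF1 receptor, a tyrosine kinase, while the IGF2 receptor carries IGF2 to the lysosome and has no kinase of its own. The IGFBPs hold most IGF outside the cell, and proteases that cut them set it free. In hair follicles, IGF1 made by the dermal papilla is known as a signal to the epithelial cells that build the hair.

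Total counts lay between 34981284 and 47604059 per library. Levels of a gene are given as counts and as CPM, the count divided by library size after TMM scaling, which corrects for library composition. Levels between genes are compared with the authors' FPKM, which also divides by transcript length. Fold changes compare log2 CPM after a prior count of 2 was added, and their 95% intervals cover counting error only. In every library more genes had 4 counts than 3 or 5, a pattern that counting both mates of each pair gives, and intervals would then be too narrow. Over 10 genes and 4 comparisons, 39 of 40 intervals excluded 0, and 38 did with halved counts.

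The summed markers of the 2 cell types did not sort the libraries by label. The summed level of 10 dermal papilla markers was 955 CPM in passage 3 DPCs, 790.5 in passage 9 DPCs, 400.4 in passage 3 DSCs and 1020 in passage 9 DSCs. The retinoid-binding protein gene Crabp1 was its largest part in all libraries but passage 3 DSCs, with 22409, 14584, 1518 and 20405 counts in that order, and Fgf7 was the largest there, with 4460, 5804, 6853 and 16216 counts. Single papilla markers differed in direction. The transcription factor gene Sox2 had 1677 and 1491 counts in DPCs against 269 and 178 in DSCs. Lef1, a transcription factor of Wnt signalling, had 508, 2, 101 and 55 counts, Fgf10 had 1840, 2807, 1078 and 6546, and the papilla marker Alpl, alkaline phosphatase, had 6 to 23 counts. The dermal sheath marker Acta2, smooth muscle actin, had 262118 and 67135 counts in DPCs and 217199 and 197315 in DSCs. The integrin gene Itga8 of the same list went another way, with 6837, 34714, 1674 and 23287 counts, highest in passage 9 DPCs. All 7 sheath markers summed to 9798, 3544, 7739 and 6962 CPM, and 9 fibroblast markers to 18840, 7469, 27670 and 24660 CPM. In the fibroblast list, Col1a1 had 266500, 43703, 405062 and 376457 counts. Pdgfra went another way, with 11173, 29093, 4594 and 12132 counts, highest in passage 9 DPCs. Dcn, with 4285, 5494, 3292 and 89544 counts, was not lowest in that library either. Keratinocyte markers summed to 1.31 to 2.07 CPM, with Krt5, Krt14 and Cdh1 at 0 in every library. The mitochondrial share of counts was 4.27% (exact binomial 95% interval 4.27 to 4.28), 7.88% (7.87 to 7.89), 4.91% (4.91 to 4.92) and 5.65% (5.65 to 5.66) in the same order of libraries. Passage 9 DPCs were thus lowest in the sheath and fibroblast sums and highest in the mitochondrial share, and the part of this in the values of that library was not tested.

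Igfbp3, Igfbp6, Igfbp2 and Igf1 differed most among the libraries, and Igf1r and Igf2r least. The range of log2 CPM over the 4 libraries was 4.51 for Igfbp3, 3.04 for Igfbp6, 2.64 for Igfbp2, 2.05 for Igf1 and 1.34 for Ghr. It was 0.86 for Igfbp5, 0.84 for Igfbp4, 0.52 for Igfbp7, 0.37 for Igf2r and 0.28 for Igf1r. The plot of levels by library shows both cell types at both passages.

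**Figure D1:**
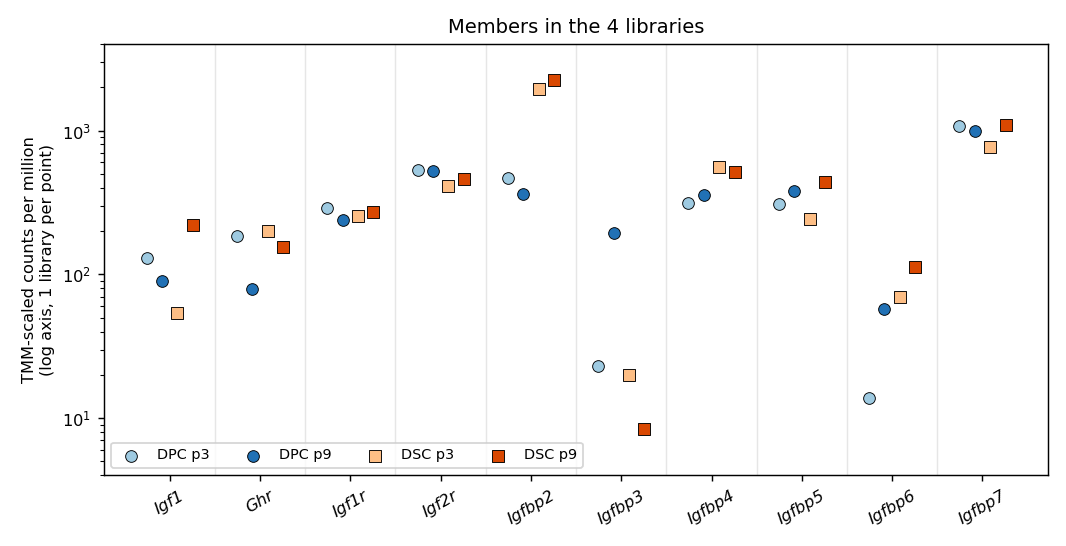
TMM-scaled CPM (log axis) of the 10 genes, with 1 point per library (circles for DPCs, squares for DSCs, darker for passage 9, written p9). Igfbp3 stands at 194 CPM in passage 9 DPCs and at 8.45 to 22.9 in the other libraries, Igfbp2 is higher in both DSC libraries, and the 4 points of Igf1r lie between 238 and 288.

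Igf1 encodes the ligand of the pathway (chr10:87858265-87937042, plus strand, GRCm38). It had 4790 counts in passage 3 DPCs, 3203 in passage 9 DPCs, 2026 in passage 3 DSCs and 10055 in passage 9 DSCs. These corresponded to 130.2, 89.3, 53.5 and 221 CPM. Passage 9 DSCs were thus the highest library and passage 3 DSCs the lowest, with both DPC libraries between them. At passage 9 Igf1 was 4.13-fold higher in DSCs (log2 2.05, interval 1.98 to 2.12) and 1.46-fold lower in DPCs (log2 -0.54, interval -0.61 to -0.48). The order of the cell types turned with passage: DPCs were above DSCs at passage 3 by 1.28 (1.21 to 1.36) and below them at passage 9 (log2 -1.31, interval -1.36 to -1.25). On FPKM with a pseudocount of 1, the value in DSCs was 1.96, just under the 4-fold threshold. The summed dermal papilla markers had the same order of libraries as Igf1, and their part in this result was not tested. In these bulk libraries, more cells that express a gene and more RNA per cell cannot be told apart.

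Ghr, the receptor for GH (chr15:3317760-3583492, minus strand), was lowest in passage 9 DPCs. Counts were 6779 and 2845 in DPCs at passages 3 and 9, and 7616 and 7009 in DSCs at passages 3 and 9. On the CPM scale these were 184, 79.3, 201 and 154. The difference with passage was -1.22 (-1.28 to -1.15) in DPCs, a 2.32-fold lower level, and -0.38 (-0.43 to -0.34) in DSCs. Ghr was the 1 of the 10 genes at least 2-fold lower at passage 9 in DPCs. The cell types lay close together at passage 3 (log2 -0.12, DPCs over DSCs) and further apart at passage 9 (-0.96). Summed markers of leukocytes and of Schwann cells followed the same order of libraries as Ghr. For 9 of 10 leukocyte markers the sum was 129, 86.6, 182 and 107.5 CPM, with Aif1 at 0 in passage 9 DSCs. Lyz2 was the largest part of this sum in every library, with 3396, 1963, 4971 and 3567 counts. Cd14 went another way, with 207, 750, 268 and 550 counts, higher at passage 9 in both cell types. All 8 Schwann markers together reached 14.9, 6.36, 35.8 and 10.9 CPM, with Sox10, Foxd3 and Ngfr at 0 in both passage 9 libraries and Erbb3 at 0 in passage 9 DPCs. Their part in the level of Ghr was not tested.

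Igf1r, the kinase receptor for IGF1 (chr7:67952827-68233668, plus strand), was the steadiest of the genes. It had 10596, 8534, 9712 and 12357 counts in passage 3 DPCs, passage 9 DPCs, passage 3 DSCs and passage 9 DSCs, or 288, 238, 256 and 271 CPM. Its passage difference was -0.28 (-0.32 to -0.23) in DPCs and 0.08 (0.04 to 0.12) in DSCs. Igf2r, the scavenging receptor (chr17:12682406-12769664, minus strand), had 19705, 18901, 15675 and 20921 counts. DPCs at passages 3 and 9 were not told apart for Igf2r by counting error (log2 -0.02, interval -0.05 to 0.01), and DSCs differed by 0.15 (0.12 to 0.18). The antisense gene Airn overlaps Igf2r without a shared exon base and had 51 to 83 counts. On FPKM, Igf2r exceeded Igf1r by 2.30-, 2.74-, 2.01- and 2.12-fold in the order of libraries used above. Messages of both receptors were thus present at similar proportions in all 4 cultures.

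Igfbp7, Igfbp2 and Igfbp4 were the 3 highest of the 10 genes by FPKM in every library, with Igfbp7 first in DPCs and Igfbp2 first in DSCs. Igfbp3 was last in passage 3 DPCs and in both DSC libraries, at 8.72, 7.16 and 2.98 FPKM, and number 4 in passage 9 DPCs, at 73.3 FPKM. Without replicate libraries there is no spread against which neighbours in this order could be compared.

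Igfbp2 encodes a binding protein that also carries an integrin-binding RGD sequence (chr1:72824503-72852474, plus strand). Its counts were 17226 and 12931 in DPCs at passages 3 and 9 and 73235 and 102092 in DSCs at passages 3 and 9, or 468, 361, 1932 and 2242 CPM. Both DSC libraries were above both DPC libraries. DSCs were 4.13-fold higher at passage 3 (log2 DPCs over DSCs -2.04, interval -2.07 to -2.02) and 6.22-fold higher at passage 9 (-2.64, interval -2.66 to -2.61). The passage differences were smaller, -0.38 (-0.41 to -0.34) in DPCs and 0.21 (0.20 to 0.23) in DSCs. The passage 3 value stood close to the 4-fold threshold and was -1.95 when libraries were scaled by total counts. Igfbp5 lies tail to tail with Igfbp2, 5457 bases away, and did not share its pattern, as its values below show.

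Igfbp3, in serum the main IGF carrier (chr11:7206086-7213923, minus strand), stood out in passage 9 DPCs. It had 842 counts in passage 3 DPCs, 6947 in passage 9 DPCs, 754 in passage 3 DSCs and 385 in passage 9 DSCs, or 22.9, 194, 19.9 and 8.45 CPM. The passage 3 cultures were close to each other (log2 0.20, interval 0.06 to 0.35, which reached 0 with halved counts). With passage the cell types went apart. Passage 9 DPCs were 8.44-fold above passage 3 DPCs (log2 3.08, interval 2.98 to 3.19), and passage 9 DSCs were 2.34-fold below passage 3 DSCs (-1.23, interval -1.42 to -1.06). At passage 9 DPCs exceeded DSCs 22.8-fold (log2 4.51, interval 4.37 to 4.67). Endothelial cells are a known source of Igfbp3, so their markers are given here: 8 genes summed to 4.24, 7.31, 8.95 and 2.88 CPM. In passage 9 DPCs Cdh5, Kdr, Tek, Tie1 and Emcn were at 0, and 194 counts of the sum were Vwf. Over the 4 libraries Vwf had 5, 194, 91 and 10 counts, with passage differences of 4.87 in DPCs and -3.18 in DSCs. Egfl7 had 58, 64, 34 and 72 counts, and Pecam1 had 12, 4, 23 and 9. The part of endothelial cells in the level of Igfbp3 was not tested. The neighbouring gene Igfbp1, 3539 bases away, had 0 counts in every library.

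Igfbp6, which binds IGF2 more tightly than IGF1 (chr15:102144362-102149511, plus strand), was higher at passage 9 in both cell types. Counts were 505 and 2059 in DPCs at passages 3 and 9 and 2648 and 5154 in DSCs at passages 3 and 9, or 13.7, 57.4, 69.9 and 113 CPM. Passage 3 DPCs were far below the other 3 libraries. The passage difference was 2.06 (1.92 to 2.21) in DPCs, a 4.17-fold higher level, and 0.70 (0.63 to 0.76) in DSCs. DSCs were above DPCs at both passages, by 5.07-fold at passage 3 (log2 DPCs over DSCs -2.34, interval -2.49 to -2.21) and 1.97-fold at passage 9 (-0.98, interval -1.05 to -0.90). On FPKM with a pseudocount of 1 the value in DPCs was 1.96. Skeletal muscle markers had the same order of libraries as Igfbp6 but summed to 0.285 CPM at most, with Myod1, Myf5 and Pax7 at 0 in every library.

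Igfbp4, the main substrate of the protease pappalysin-1 (chr11:99041244-99054392, plus strand), followed cell type more than passage on counts. It had 11556 and 12811 counts in DPCs at passages 3 and 9 and 21250 and 23471 in DSCs at passages 3 and 9. DSCs were above DPCs by 1.78-fold at passage 3 and 1.44-fold at passage 9, while its passage difference was 0.19 (0.15 to 0.22) in DPCs and -0.12 (-0.15 to -0.09) in DSCs. The summed adipocyte markers had the same order of libraries as Igfbp4, at 3.43, 4.38, 11.8 and 9.29 CPM over 6 genes. Adipoq, Plin1, Lep and Cfd were at 0 in every library. The sum came from Pparg (92, 68, 421 and 334 counts) and Fabp4 (34, 89, 26 and 89 counts), and neither gene alone had that order. Igfbp5, which binds to extracellular matrix (chr1:72857932-72874884, minus strand), had 11385, 13714, 9131 and 19951 counts. It was 1.82-fold higher in passage 9 than in passage 3 DSCs (log2 0.86, interval 0.83 to 0.90) and 1.23-fold higher in passage 9 than in passage 3 DPCs (0.30, interval 0.27 to 0.34). Igfbp7, a relative with weak affinity for IGFs (chr5:77349240-77408041, minus strand), had 39773, 35446, 29083 and 50100 counts. It was 1.43-fold higher in passage 9 than in passage 3 DSCs (0.52, interval 0.50 to 0.54) and differed by -0.13 (-0.15 to -0.11) in DPCs, and its order of libraries was that of Igf1 and of the summed dermal papilla markers. Igfbp4, Igfbp5 and Igfbp7 thus stayed within 2-fold between passages in both cell types. The 3′ end of Igfbp7 shares 85 bases with Polr2b on the other strand, which had 3655 to 4864 counts, so a small part of either count is uncertain if strand was not used.

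The make-up of the IGFBP messages differed between the cell types. Summed over Igfbp2 to Igfbp7, FPKM was 1395 in passage 3 DPCs, 1369 in passage 9 DPCs, 2169 in passage 3 DSCs and 2608 in passage 9 DSCs. Igfbp7 supplied 63.6% and 58.8% of the sum in DPCs and 27.3% and 31.9% in DSCs. Igfbp2 supplied 23.8% and 18.6% in DPCs and 59.8% and 56.4% in DSCs. The leading IGFBP was thus Igfbp7 in DPCs and Igfbp2 in DSCs at both passages. Igfbp3 made up 0.625% of the sum in passage 3 DPCs, 5.35% in passage 9 DPCs, 0.330% in passage 3 DSCs and 0.114% in passage 9 DSCs. Igfbp6 made up 0.815%, 3.45%, 2.51% and 3.32%.

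**Figure D2:**
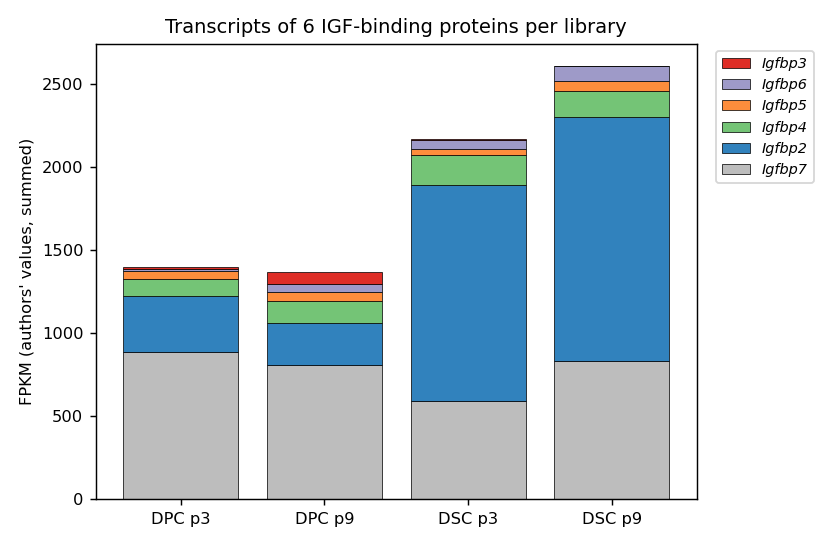
Authors' FPKM of Igfbp2 to Igfbp7, stacked for each library (1 bar per library, p3 and p9 for passages 3 and 9). The bars reach 1395, 1369, 2169 and 2608, and the Igfbp2 segment is the larger part of both DSC bars while Igfbp7 is the larger part of both DPC bars.

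Relative to the ligands, the binding proteins were most abundant in passage 3 DSCs. The sum of Igfbp2 to Igfbp6, the members with high affinity for IGFs, was 17.1 times Igf1 in passage 3 DPCs, 29.4 times in passage 9 DPCs, 157 times in passage 3 DSCs and 42.4 times in passage 9 DSCs. Against the sum of Igf1 and Igf2, the other ligand of the IGF1 receptor, it was 15.9, 13.98, 121 and 37.1 times, values computed after those against Igf1 were seen. The ratio was thus lower at passage 9 in DSCs with either measure, and in DPCs it was higher against Igf1 alone. Against both ligands the DPC ratio was lower on FPKM, but this direction rests on the FPKM of Igf2. The passage difference of Igf2 in DPCs was 3.14 on FPKM and 1.88 on counts, so the direction is not settled. All these ratios are of messages on the FPKM scale, and protein was not measured. The length implied by counts and FPKM differed between libraries by up to 1.18-fold for Ghr and 1.14-fold for Igf1 and Igfbp4, so these ratios carry an uncertainty of that size. It differed by at most 1.01-fold for the other 7 genes, and by more for Igf2, as given below.

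The promoters of Igfbp2, Igfbp3 and Igfbp6 are shown because these genes had the widest range over the libraries. Each sequence is the stretch of 250 bases before the RefSeq start of the gene (GRCm38.p6), read 5′ to 3′ on the strand of the gene. Capitals mark the GC box letters GGGCGG or the TATA letters TATAAA, on either strand. Igfbp2 (chr1:72824230-72824479, plus strand) is the first of its 2 RefSeq starts, Igfbp3 lies at chr11:7213924-7214173 (minus strand), and Igfbp6 at chr15:102143936-102144185 (plus strand).
Igfbp2: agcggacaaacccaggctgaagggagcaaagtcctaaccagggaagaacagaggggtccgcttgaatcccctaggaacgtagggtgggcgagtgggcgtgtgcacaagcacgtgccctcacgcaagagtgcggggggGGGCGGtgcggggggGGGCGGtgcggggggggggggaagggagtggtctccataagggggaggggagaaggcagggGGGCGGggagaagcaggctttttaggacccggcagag
Igfbp3: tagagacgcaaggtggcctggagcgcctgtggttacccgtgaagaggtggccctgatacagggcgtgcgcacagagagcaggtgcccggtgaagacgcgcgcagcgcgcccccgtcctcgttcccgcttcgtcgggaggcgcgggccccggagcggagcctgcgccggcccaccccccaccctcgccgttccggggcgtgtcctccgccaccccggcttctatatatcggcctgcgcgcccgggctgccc
Igfbp6: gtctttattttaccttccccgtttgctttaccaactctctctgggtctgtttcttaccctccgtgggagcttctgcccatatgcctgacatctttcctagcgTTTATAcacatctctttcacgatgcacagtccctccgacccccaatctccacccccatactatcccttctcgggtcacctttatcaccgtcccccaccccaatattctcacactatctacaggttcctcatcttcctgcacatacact

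The windows differed in composition, with 67.2% G and C for Igfbp2, 73.2% for Igfbp3 and 49.6% for Igfbp6. Igfbp2 held 3 GC boxes, at positions -113, -98 and -37 from the start, and 32.7% of 32851 RefSeq windows of this length hold at least 1. Igfbp6 held TATAAA on the opposite strand, at positions -148 to -143, and 12.4% of all windows hold these letters. Igfbp3 held neither. Some windows of the 10 genes overlap annotated exons. Exons cover all 250 bases of the Igf1 window, 140 at the second start of Ghr, 65 at the second start of Igfbp2 and 19 for Igfbp5. The STAT5 letters TTCNNNGAA, found in 7.02% of all windows, and the FOXO letters GTAAACA, found in 3.17%, were in none of the windows of the 10 genes. These matches describe letters only, and both the GC box and the TATA search were added after the values were seen.

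The first comparison asked which of the genes differed between passages in DPCs. Igfbp3 and Igfbp6 were at least 4-fold higher at passage 9, 2 of 10 genes against 5.58% of all tested genes. None of the 10 was at least 4-fold lower, against 4.36%. At 2-fold, 2 were higher (all genes 16.1%) and 1, Ghr, was lower (all genes 15%). The median log2 fold change of the 10 was -0.08, against 0.03 over all tested genes. In DSCs, Igf1 alone was at least 4-fold higher, 1 of 10 against 2.67%, and 0 were 4-fold lower, against 1.16%. At 2-fold, 1 was higher (8.55%) and 1, Igfbp3, was lower (6.21%). The median in DSCs was 0.18, against 0.00. With 10 genes, each call moves a share by 10 points, and these counts describe the family only.

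The next comparison set DPCs against DSCs within each passage. These comparisons use the same 4 libraries as those of passage and are no separate evidence. At passage 3, 0 of the 10 were at least 4-fold higher in DPCs (all genes 1.52%), and Igfbp2 and Igfbp6 were at least 4-fold lower (2.77%). At 2-fold, Igf1 was higher (5.43%) and the same 2 IGFBPs were lower (7.86%). At passage 9, Igfbp3 was at least 4-fold higher in DPCs (2.5%) and Igfbp2 at least 4-fold lower (3.91%). At 2-fold, Igfbp3 was higher (9.11%), and Igf1 and Igfbp2 were lower (11%). The medians were 0.19 at passage 3, against 0.00 over all tested genes, and -0.36 at passage 9, against -0.01.

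The 2 cell types differed in their responses to passage most for Igfbp3 and Igf1. The passage difference in DPCs minus that in DSCs was 4.31 (4.10 to 4.51) for Igfbp3, and 89 of 16734 tested genes had a value as high. For Igf1 it was -2.59 (-2.68 to -2.49), and 364 genes had a value as low. Igfbp6 followed at 1.36 (1.21 to 1.52), since its level was higher at passage 9 in both cell types but more so in DPCs. The other 7 genes lay between -0.83 for Ghr and 0.31 for Igfbp4. An absolute difference of at least 1 was found for 3 of the 10 genes and for 24.06% of all tested genes. Passage differences of opposite sign in the 2 cell types were found for 7 of the 10 genes and for 29.4% of all tested genes, although for 5 of the 7, all but Igfbp3 and Igf1, both differences were under 2-fold.

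**Figure D3:**
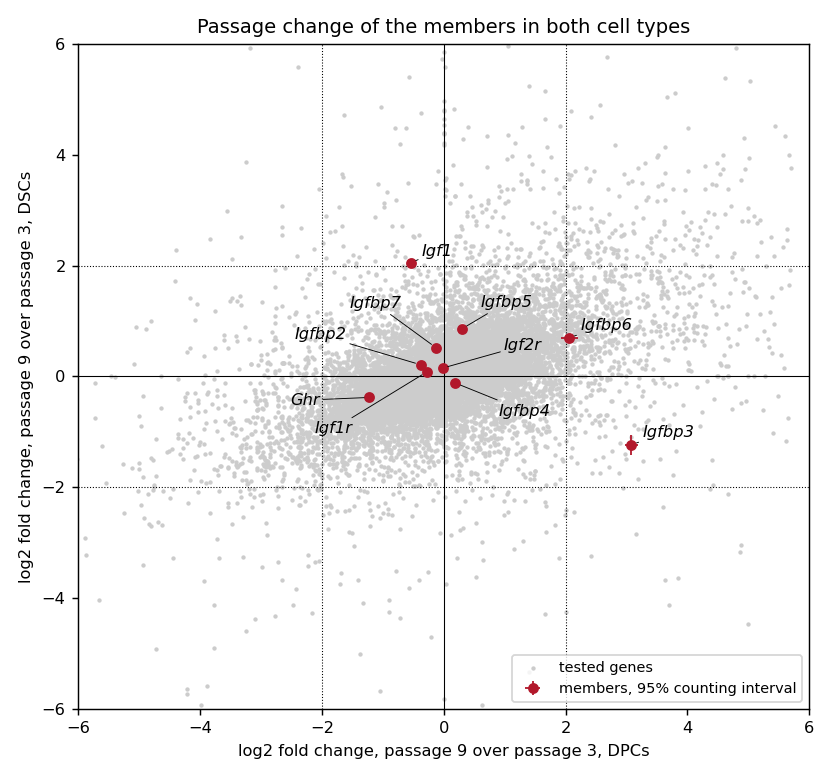
Passage difference (log2 of passage 9 over passage 3) in DPCs on the horizontal axis and in DSCs on the vertical axis, for tested genes (grey, with 65 genes beyond the axes not drawn) and for the 10 genes (red, bars give 95% counting intervals). Dotted lines mark 4-fold. Igf1 lies at -0.54 and 2.05, Igfbp3 at 3.08 and -1.23, and Igfbp6 at 2.06 and 0.70.

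An additive model asked for effects of passage common to both cell types and of cell type common to both passages. Its single residual degree of freedom is the difference between the responses of DPCs and DSCs, not the spread of replicate cultures. For passage, the quasi-likelihood test of edgeR called 0 genes at an adjusted p under 0.05 (0% of all tested genes), and 2822 genes (16.9%) had an unadjusted p under 0.05. By edgeR, Igfbp6 (log2 1.37, adjusted p = 0.234) and Ghr (-0.80, adjusted p = 0.284) were among the latter. For cell type it called 0 genes (0%), with 1381 (8.25%) at an unadjusted p under 0.05. By edgeR, Igfbp2 (-2.34 for DPCs over DSCs, adjusted p = 0.193) and Igfbp6 (-1.66, adjusted p = 0.303) were among these. Fitted to these terms, DESeq2's Wald test called 955 genes for passage, with Igfbp6 among them (adjusted p = 0.0323), and 496 for cell type, with Igfbp2 (adjusted p = 4.15e-11) and Igfbp6 (adjusted p = 0.00785). Igf1 and Igfbp3 passed in neither tool, and their responses in DPCs and DSCs had opposite signs.

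The genes most like Igfbp3 over the 4 libraries were found by the distance of log2 CPM centred on the mean of each gene. The nearest was Slco4a1, an organic anion transporter gene, at a distance of 0.38, with 143, 928, 125 and 47 counts. It was followed by Tenm1 at 0.40, with 6, 43, 4 and 1 counts, and by Enpp2, the gene of autotaxin, at 0.53, with 25, 207, 34 and 13 counts. The antisense gene Gm29083 (0.54) and the transcription factor gene Bcl11a (0.59) completed the 5 nearest. All 5 were highest in passage 9 DPCs and lowest in passage 9 DSCs. A likeness over 4 libraries is a description, and most of these counts are low.

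The rest of the pathway was read from lists of 50 further genes, of which 41 passed the count minimum. In DPCs 2 were at least 4-fold higher and 1 lower at passage 9, or 4.88% and 2.44% against 5.58% and 4.36% of all tested genes, with a median of 0.11 against 0.03. In DSCs 1 was 4-fold higher and 0 were lower, or 2.44% and 0% against 2.67% and 1.16%, with a median of 0.04 against 0.00. The genes past 4-fold were Stc1, Stc2 and Adam12 in DPCs and Stc1 in DSCs, all from 1 list of 9 genes, the proteases of IGFBPs and their inhibitors. Between cell types, Stc1 was 4-fold higher in DPCs at both passages and Stc2 at passage 9, while Pappa2 and Igfals were 4-fold lower in DPCs at both passages.

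Stanniocalcins, secreted proteins that block pappalysins, differed most. Stc1 had 203 counts in passage 3 DPCs, 9688 in passage 9 DPCs, 22 in passage 3 DSCs and 583 in passage 9 DSCs. Its passage difference was 5.60 (5.41 to 5.82) in DPCs and 4.35 (3.85 to 5.15) in DSCs. Stc2 had 360, 7292, 405 and 1704 counts, and gave 4.37 (4.22 to 4.53) for DPCs and 1.80 (1.65 to 1.97) for DSCs. Both stanniocalcin messages were thus higher at passage 9 in both cell types. This gene list was chosen with results of these libraries known. Pappa, the gene of pappalysin-1, had 11507, 7984, 13339 and 16960 counts, with passage differences of -0.49 and 0.08. Per unit of Pappa FPKM, summed Stc1 and Stc2 FPKM was 0.141 in passage 3 DPCs, 6.15 in passage 9 DPCs, 0.0947 in passage 3 DSCs and 0.388 in passage 9 DSCs. Passage 9 DPCs were the 1 library in which the inhibitor messages exceeded that of the protease on this scale. Pappa2, which cleaves IGFBP3 and IGFBP5, had 390, 308, 1666 and 1586 counts, lower in DPCs by log2 -2.05 at passage 3 and -2.01 at passage 9. Adam12, another protease that cleaves IGFBP3 and IGFBP5, had 5465, 1041, 7196 and 2746 counts. It was lower at passage 9 in both cell types, with log2 values of -2.35 (-2.45 to -2.26) for DPCs and -1.65 (-1.72 to -1.59) for DSCs.

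Of the ligands, Gh, Prl, Ins1 and Ins2 had 0 counts in every library. Igf2 had 361, 1305, 536 and 662 counts, with passage differences of 1.88 (1.72 to 2.06) in DPCs and 0.04 (-0.13 to 0.21) in DSCs. Its FPKM was 2.32, 21.2, 3.03 and 6.02, which gives 3.14 and 0.97 instead, so the size of its difference depends on the unit. Counts and FPKM together imply a transcript of 4.40, 1.76, 4.57 and 2.31 kb in the 4 libraries. On FPKM, Igf2 was 0.0782 times Igf1 in passage 3 DPCs and 1.11 times in passage 9 DPCs, and 0.301 and 0.144 times in DSCs at passages 3 and 9. Insr, the insulin receptor, had 1363, 2297, 1706 and 1754 counts, a difference of 0.79 in DPCs and -0.22 in DSCs. Igfals, whose protein joins IGFBP3 and IGF in a large serum complex, had 0 counts in both DPC libraries and 43 and 31 in DSCs at passages 3 and 9. Against 3 counts as the floor for a library at 0, DSCs were at least 13.9-fold higher at passage 3 and at least 8.14-fold higher at passage 9, bounds that halve if both mates were counted. The prolactin receptor gene Prlr had 0, 8, 0 and 7 counts.

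The signalling genes below the receptors are given next. Of 10 genes of JAK2, STAT5 and SOCS signalling, none differed 4-fold in any comparison, and medians lay between 0.00 and 0.09. Among all tested genes, 1.16% to 5.58% passed 4-fold in each direction of a comparison, so 0 of 10 is not far from that share. Jak2 differed with passage by 0.11 in DPCs and 0.04 in DSCs, Stat5a by -0.23 and -0.17, and Stat5b by 0.15 and -0.13. Socs2, which STAT5 induces and which damps GH signalling, had 356, 222, 519 and 687 counts. Its passage difference was -0.64 (-0.89 to -0.40) in DPCs and 0.14 (-0.03 to 0.31) in DSCs. Cish, another gene that STAT5 induces, had 186, 147, 165 and 163 counts. Its passage differences were -0.30 (-0.63 to 0.02) in DPCs and -0.28 (-0.60 to 0.04) in DSCs, and both intervals included 0. Of 19 tested adaptors and PI3K-AKT genes, none differed 4-fold in any comparison, against the same 1.16% to 5.58% of all tested genes in each direction. At 2-fold, 1 of 19 was higher and 2 were lower at passage 9 in DPCs, against 16.1% and 15% of all tested genes, and 1 was higher and 0 were lower in DSCs, against 8.55% and 6.21%.

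**Figure D4:**
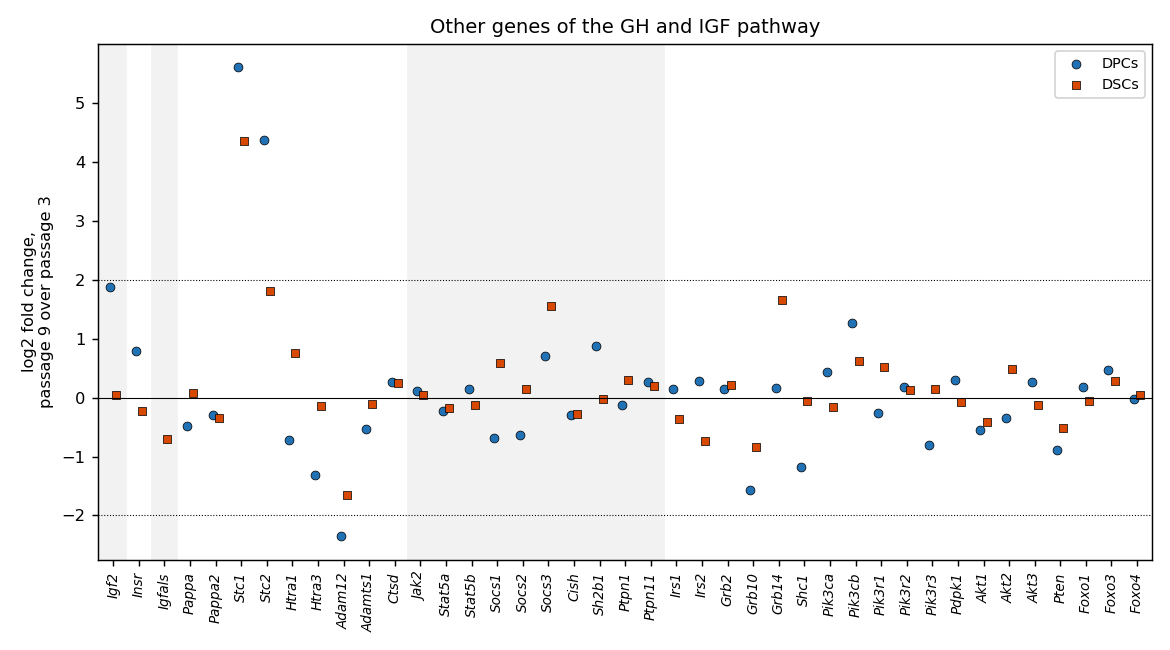
Passage difference (log2 of passage 9 over passage 3) of the 41 tested further pathway genes in DPCs (circles) and DSCs (squares), grouped by list with alternating grey and white ground, from ligands on the left through receptors, carriers, proteases with their inhibitors and GH signalling to adaptors and PI3K-AKT. Dotted lines mark 4-fold, and Igfals has no DPC point because both DPC libraries were at 0. Stc1 (5.60 and 4.35) and Stc2 (4.37 and 1.80) stand above the rest, and Adam12 (-2.35 and -1.65) below.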

How the data were processed

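The members and gene lists were chosen with earlier results of these data known. The methods describe poly-T selection and paired-end Illumina sequencing, with a different library kit named in the labels. The authors deposited raw counts per gene, which are whole numbers without normalization, and the authors' FPKM per library. The labels' processing notes list Bowtie 0.12.2 and the builds mm8 and mm9 without roles, but of 51633 gene IDs found in GENCODE M21 (GRCm38), 94.2% had identical positions, all 10 members included. The counting program, annotation and use of strand are not given in the sources used here. Total counts were 35340038, 34981284, 38780425 and 47604059 for passage 3 DPCs, passage 9 DPCs, passage 3 DSCs and passage 9 DSCs. A count of 0 allows 3 counts, or 0.0659 to 0.0837 CPM. Intervals and floors cover counting error only.

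Genes with a mean count of at least 10 were kept, counts were scaled by TMM in edgeR 4.0.16 (R 4.3.3), and calls were made at 4-fold and 2-fold. Intervals are Clopper-Pearson intervals of a library's share of 2 libraries' counts (scipy 1.17.1), and those of response differences come from inverse counts. The additive model used edgeR's quasi-likelihood test with Benjamini-Hochberg adjustment, and DESeq2 1.42.0 as an alternative. Promoters came from RefSeq. Named beside the members were pathway genes at least 4-fold different in 1 comparison, 8 genes whatever their values (Igf2, Insr, Igfbp1, Pappa, Stat5a, Stat5b, Socs2, Jak2), marker genes, and the 5 genes nearest in pattern to the member with the widest range. Cish and the pathway genes given last for 2-fold differences were named outside these groups. Alternatives were other scalings, prior counts, count minimums and units. Protein sequences were not analysed here, and Itgam, found in 2 rows, was left out of the leukocyte markers.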

Additional observations from a re-analysis of the deposited data

Results flagged for a closer look

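For 7 genes the passage difference had opposite signs in DPCs and DSCs. With 1 library in each group, the difference between the cell types was not tested beyond counting error. On the log2 scale, the passage difference in DPCs minus that in DSCs was 4.31 for Igfbp3 and -2.59 for Igf1. It was -0.65 for Igfbp7, -0.59 for Igfbp2, -0.36 for Igf1r, 0.31 for Igfbp4 and -0.18 for Igf2r. For Igf2r the counting interval in DPCs included 0, so its sign there is not fixed by the counts. Igfbp5 was higher at passage 9 in both cell types, but its difference between DPCs and DSCs had opposite signs at passage 3 (0.36) and passage 9 (-0.20), and its responses differed by -0.56. This too was not tested. The cell type difference also changed sign with passage for Igf1, Igf1r and Igfbp7.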

How the results depend on the processing

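No analysis paired by replicate was possible because each group holds 1 library, so replicate numbers cannot form a block. The additive model is itself a passage comparison with cell type as a term. Leaving out a library would leave a group empty. Of 360 fold changes of the 10 genes under alternatives, 273 stayed within counting error, 86 moved further, by at most 0.29, and 1 reversed: Igf2r in DPCs was 0.01 instead of -0.02 with a minimum mean count of 100. Other scalings moved values by at most 0.1. The number of the 10 genes past 4-fold went from 2 to 1 in DPCs and from 1 to 0 in DSCs on FPKM with a pseudocount of 1. At passage 3 between cell types it went from 2 to 1 with total counts and with both FPKM pseudocounts. All genes past 4-fold in the comparisons DPC passage, DSC passage, passage 3 cell type and passage 9 cell type numbered 1663, 640, 719 and 1074. Without a filter they were 2622, 1254, 1319 and 1805, with a minimum of 100 they were 758, 210, 301 and 458, and on FPKM with a pseudocount of 1 they were 354, 72, 96 and 211. A prior count of 10 gave 339, 400 and 712 in the last 3, and FPKM with a pseudocount of 0.1 gave 350 and 392 in DSC passage and passage 3 cell type. The additive model's 0 calls became 955 for passage with DESeq2, and for cell type 496 with DESeq2, 13 with the minimum of 100 and 5 with DESeq2 size factors in edgeR. A lower filter admits more genes of few counts, and a pseudocount pulls their folds toward 0. The cause of the other shifts was not tested. Depth limited the low genes: Igfals, Prlr and most markers at 0 could hide up to 3 counts.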

Other observations

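Of the 41 further pathway genes tested, 4 were at least 2-fold higher and 4 lower at passage 9 in DPCs (9.76% each, against 16.1% and 15% of all tested genes), and 4 were higher and 1 lower in DSCs (9.76% and 2.44%, against 8.55% and 6.21%). Those not yet described are given here, chosen for their values, with some genes at 2-fold between cell types. Grb10, an adaptor that restrains the insulin and IGF1 receptors, had 6006 counts in passage 3 DPCs, 1988 in passage 9 DPCs, 13810 in passage 3 DSCs and 9241 in passage 9 DSCs. It was lower at passage 9 with log2 values of -1.56 (-1.63 to -1.49) for DPCs and -0.84 (-0.88 to -0.81) for DSCs, and lower in DPCs than in DSCs at both passages (-1.16 and -1.87). Its relative Grb14 had 1076, 1172, 688 and 2594 counts, with passage differences of 0.16 in DPCs and 1.65 (1.53 to 1.77) in DSCs.

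Shc1, an adaptor to the RAS pathway, had 10480, 4497, 8498 and 9767 counts, with a passage difference of -1.18 (-1.24 to -1.13) in DPCs and -0.06 in DSCs. Pik3cb, a catalytic subunit of PI3 kinase, had 593, 1392, 1059 and 1953 counts, with passage differences of 1.26 (1.13 to 1.41) and 0.62 (0.51 to 0.73). Irs2, an insulin receptor substrate, had 2272 and 2696 counts in DPCs and 1218 and 883 in DSCs. Socs3, an inhibitor of cytokine signalling, had 796, 1272, 338 and 1200 counts, with passage differences of 0.71 in DPCs and 1.56 in DSCs, and its relative Socs1 had 74, 44, 74 and 135. Htra3, a secreted protease, had 94, 36, 165 and 180 counts, with passage differences of -1.31 (-1.94 to -0.78) and -0.14 (-0.45 to 0.17). Htra1, a secreted protease that can cleave IGFBPs, had 17074, 10088, 15439 and 31299 counts. It was lower at passage 9 in DPCs (-0.72, interval -0.76 to -0.69) and higher in DSCs (0.75, interval 0.73 to 0.78). Intervals cover counting error only, and no value here has a replicate check.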
